A study of Mus musculus with 12 samples.

Results

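The complement genes C1qa, C1qb, C1qc, C1ra, C1s1, Serping1, C3, C4b and Cfb were read in single-cell RNA libraries of the mouse aorta. They were chosen by name, as 9 of the 32245 gene symbols in the 4 gene expression matrices, and were followed by source cell type and by library. All 4 groups were given as male C57BL/6J ApoE-/- mice, 8 weeks old at the start and kept for 24 weeks. The Healthy group received a normal diet with saline. The AS (atherosclerosis) group received a high-fat diet with saline. The MTZ-treated group received the same diet with saline and then methazolamide (MTZ, a carbonic anhydrase inhibitor used in glaucoma, written methoxazolamide in the sample labels) from week 13. The MTZ-preventive group received the diet with MTZ for all 24 weeks, and both MTZ groups were dosed at 25 mg/kg into the stomach every other day. ApoE-/- mice lack apolipoprotein E, carry high blood cholesterol and form plaques on a fatty diet. Each group had 18 mice, 6 of whose aortas were pooled into 1 library, which leaves differences between conditions without a replicate check, and no test was made.

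Complement is a cascade of blood and tissue proteins that tags particles for uptake and drives inflammation. C1q binds antibody complexes, dying cells and modified lipoproteins, and is made mainly by macrophages rather than by the liver. Of the proteases C1r and C1s, carried by C1q, C1s cuts C4 and C2 to form the classical C3 convertase. Serping1 encodes the inhibitor that removes both proteases. C3 is the protein on which all routes of the cascade meet, C4b encodes complement component 4, and Cfb encodes factor B, which forms the alternative convertase with C3b. Fibroblasts, fat cells and liver cells make the proteases, their inhibitor and C3.

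Apoe went against the label of 1 library before any complement gene was read. Its level was 701 CPM in the library labelled Healthy beside 11.6 in AS, against 13.1 in MTZ-treated and 8.21 in MTZ-preventive (CPM, UMIs of a gene for every 1000000 UMIs of the same cells), although ApoE-/- mice are given for all groups, and the first is therefore called the library labelled Healthy. In every comparison with that library, diet and the difference in Apoe cannot be told apart, and the genotype of its mice was not tested. A UMI is a tag that counts 1 RNA molecule. The limits on genes, UMIs and mitochondrial RNA were passed by 12339, 2199, 7212 and 16316 cells in the same order, and 1218, 39, 416 and 2130 of them were called doublets and removed. The kept cells held between 3802388 and 33628333 UMIs per library, with medians of 1299 to 1934 per cell, and pairs of libraries shared 24 to 238 barcodes. Cells were assigned to a class by a gate of at least 3 detected markers of the class and 2 more than of any other class, with no complement gene among the markers (Cd68, Csf1r and Adgre1 are examples for macrophages, Pdgfra, Dpt and Lum for fibroblasts). A gate is a range and not a cell type. The fibroblast gate held 1748, 322, 1923 and 3583 cells, of which 395, 88, 348 and 903 lay at the minimum of 3 markers or of 2 in lead, with a median of 1 or 2 markers of the next best class, and the endothelial gate held 630, 362, 1140 and 1355 cells. The gate of adipocyte markers held 15, 253, 16 and 763 cells. Limits in parentheses are 95% intervals from counting error alone. UMIs were read from the 5′ ends of transcripts and not divided by length, so no level was compared between genes.

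The macrophage gate was affected by doublet removal, and its results are therefore given with called doublets kept, and the levels and counts of calls without them as well. Of the 38, 44, 79 and 57 macrophage-gated cells that passed the limits, 16, 0, 22 and 56 were called doublets, so that 1 cell was left in MTZ-preventive. The called cells had a median of 1 marker of their next best class, the same as the kept cells, in each library that had both. The gate demands a lead over every other class, so that this count cannot tell doublets from single cells. Median depths of called against kept cells were 3592 against 2779 UMIs in the library labelled Healthy and 2186 against 3077 in MTZ-treated. In MTZ-preventive they were 4888.5 against 1600, the latter from 1 cell. Whether the called cells are doublets was not tested. The called cells held 17786 CPM of summed C1q against 7733 CPM in the kept cells of the library labelled Healthy, and 15320.4 CPM against 12794 CPM in MTZ-treated. In the kept cells, 11, 12 and 12 of the 12 macrophage markers were detected in the library labelled Healthy, AS and MTZ-treated, at summed levels of 3114, 4748 and 7132 CPM. Doublet removal was unequal in other gates too, whose levels are given after it. It took 15.6% of fibroblast-gated cells in MTZ-preventive and 1.53% in AS, and 14.4% and 0.275% of endothelial-gated cells. In MTZ-preventive it took 31 of 31 neutrophil-gated cells and 78 of 94 cells gated by Schwann cell markers.

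C1q is built from 3 chains, whose genes C1qa (chr4:136895916-136898844), C1qb (chr4:136880126-136886200) and C1qc (chr4:136889801-136892936) lie side by side. Positions and sequences are from RefSeq (GRCm38.p6, the assembly known as mm10), whose tables held promoter windows for 5 of the 9 genes. The 250 bases before the start sites of C1qb (chr4:136886201-136886450, minus strand) and C1qc (chr4:136892915-136893164, minus strand) are shown because each chain had the other chains as the genes of most similar pattern. Capitals mark matches, on either strand, to GAGGAA, the core bound by the macrophage factor PU.1.
C1qb: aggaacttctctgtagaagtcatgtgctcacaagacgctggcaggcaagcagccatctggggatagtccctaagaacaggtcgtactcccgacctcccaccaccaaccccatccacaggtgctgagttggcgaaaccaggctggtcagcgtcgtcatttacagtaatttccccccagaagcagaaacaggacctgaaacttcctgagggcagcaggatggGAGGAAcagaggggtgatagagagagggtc
C1qc: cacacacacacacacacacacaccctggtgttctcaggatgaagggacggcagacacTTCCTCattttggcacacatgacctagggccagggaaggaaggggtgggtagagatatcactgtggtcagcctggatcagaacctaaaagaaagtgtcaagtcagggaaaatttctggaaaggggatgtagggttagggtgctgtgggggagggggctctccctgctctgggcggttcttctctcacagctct
Each window held 1 match, starting at position -30 from the start site of C1qb and at position -193 of C1qc. Of 32851 promoter windows in the table, which run from 250 bases before to 50 after a start, 23.3% held at least 1 such match in the 250 bases before the start. A match is a description and not a bound site.

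C1q transcripts came mainly from macrophage-gated cells in every library when called doublets were kept. Of all C1qa UMIs the gate held 76.5% in the library labelled Healthy beside 63.3% in AS, against 62.2% in MTZ-treated and 67.6% in MTZ-preventive. Of C1qb UMIs it held 71.4% in the library labelled Healthy beside 59.3% in AS, against 64.0% in MTZ-treated and 66.9% in MTZ-preventive, and of C1qc UMIs 72.8% in the library labelled Healthy beside 60.1% in AS, against 66.3% in MTZ-treated and 63.9% in MTZ-preventive. Of the UMIs of all genes the same cells held 0.382% in the library labelled Healthy beside 3.64% in AS, against 1.73% in MTZ-treated and 0.675% in MTZ-preventive. Cells that passed no gate held between 8.84% of C1qa UMIs, in the library labelled Healthy, and 29.4% of C1qb UMIs, in AS, and formed the next largest source for each chain in every library.

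**Figure D1:**
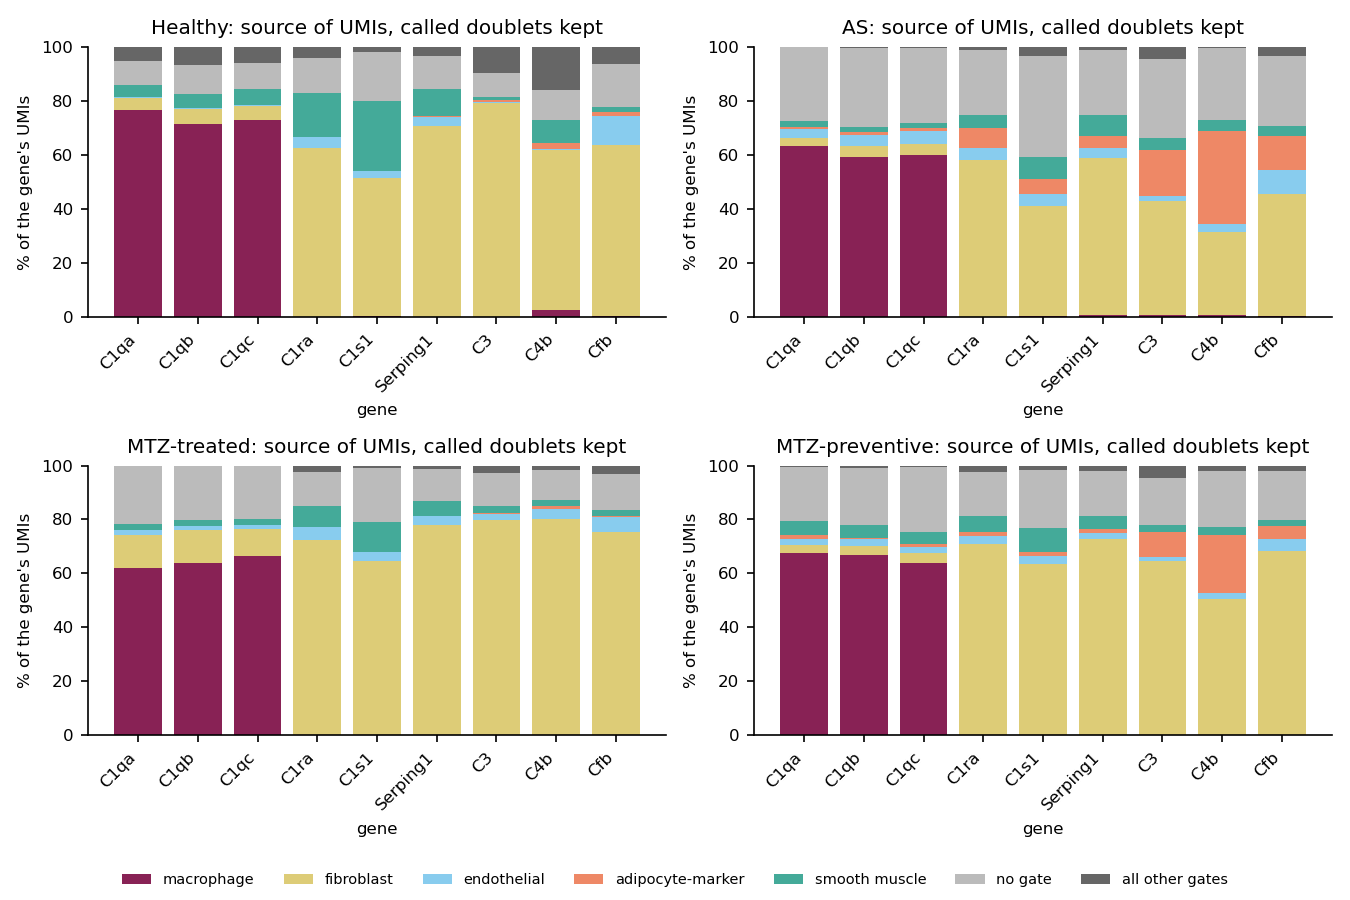
Share of each gene's UMIs (y axis, % of the UMIs of the gene in the library) by gate (colours) for the 9 complement genes (x axis) in the 4 libraries, called doublets kept. The 3 C1q chains come mostly from macrophage-gated cells in each library, and fibroblast-gated cells are the largest source of the other 6 genes except C4b in AS, where the gate of adipocyte markers holds 34.6%.

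Within macrophage-gated cells with called doublets kept, C1q differed by less than 2-fold between libraries. C1qa measured 3947 (3617 to 4298) CPM in the library labelled Healthy beside 4257 (3923 to 4612) in AS, against 3939 (3713 to 4174) in MTZ-treated and 3474 (3264 to 3694) in MTZ-preventive. C1qb measured 4769 (4406 to 5154) CPM in the library labelled Healthy beside 6019.9 (5621 to 6439) in AS, against 5399 (5134 to 5673) in MTZ-treated and 4987 (4735 to 5250.0) in MTZ-preventive. C1qc measured 3326 (3024 to 3650.3) CPM in the library labelled Healthy beside 3980.1 (3657 to 4324) in AS, against 4015 (3787 to 4252) in MTZ-treated and 2678 (2494 to 2872) in MTZ-preventive. AS was the highest for C1qa and C1qb, MTZ-treated was level with AS for C1qc, and MTZ-preventive was the lowest for C1qa and C1qc. The AS ratio over the library labelled Healthy was 1.08 (0.958 to 1.21) for C1qa, 1.26 (1.14 to 1.40) for C1qb and 1.20 (1.05 to 1.36) for C1qc. MTZ-treated stood to AS at 0.925 (0.837 to 1.02), 0.897 (0.824 to 0.976) and 1.01 (0.911 to 1.12), in the same order of chains. MTZ-preventive stood to AS at 0.816 (0.737 to 0.904), 0.828 (0.761 to 0.903) and 0.673 (0.603 to 0.751), so that all 3 intervals lay below 1.

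Removing the called doublets widened the difference between AS and the library labelled Healthy. C1qa then measured 2551 (2206 to 2936) CPM in the library labelled Healthy beside 4257 (3923 to 4612) in AS, against 3819 (3568 to 4082) in MTZ-treated. C1qb measured 3179 (2792 to 3605) CPM in the library labelled Healthy beside 6019.9 (5621 to 6439) in AS, against 5174 (4882 to 5479.8) in MTZ-treated, and C1qc measured 2002 (1697 to 2345) CPM in the library labelled Healthy beside 3980.1 (3657 to 4324) in AS, against 3801 (3551 to 4064) in MTZ-treated. The AS ratios over the library labelled Healthy became 1.67 (1.42 to 1.97), 1.89 (1.64 to 2.19) and 1.99 (1.66 to 2.39) for C1qa, C1qb and C1qc. Those of MTZ-treated to AS were 0.897 (0.807 to 0.997), 0.860 (0.786 to 0.940) and 0.955 (0.858 to 1.06). The library labelled Healthy had 22 kept macrophage-gated cells, and a mean over cells in place of their sum gave log2 ratios of -0.06, 0.31 and 0.31. With a wider list of macrophage markers, chosen after the data were seen, the log2 ratios were 1.58, 1.74 and 1.87, from 69 and 151 cells, and thus above 2-fold. In the 20 cells that this list left in MTZ-preventive after doublet removal there were 0 C1qa UMIs against 772 in AS, 1 C1qb UMI against 1150 and 5 C1qc UMIs against 751. The lack of a 2-fold difference therefore holds for the gate as first set with plain totals, and not for the wider list. In the first gate TMM factors, which rescale library totals, raised each log2 ratio of AS over the library labelled Healthy by 0.17. From 0.92 for C1qb and 0.99 for C1qc this took both above 2-fold, while C1qa, from 0.74, stayed below.

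**Figure D2:**
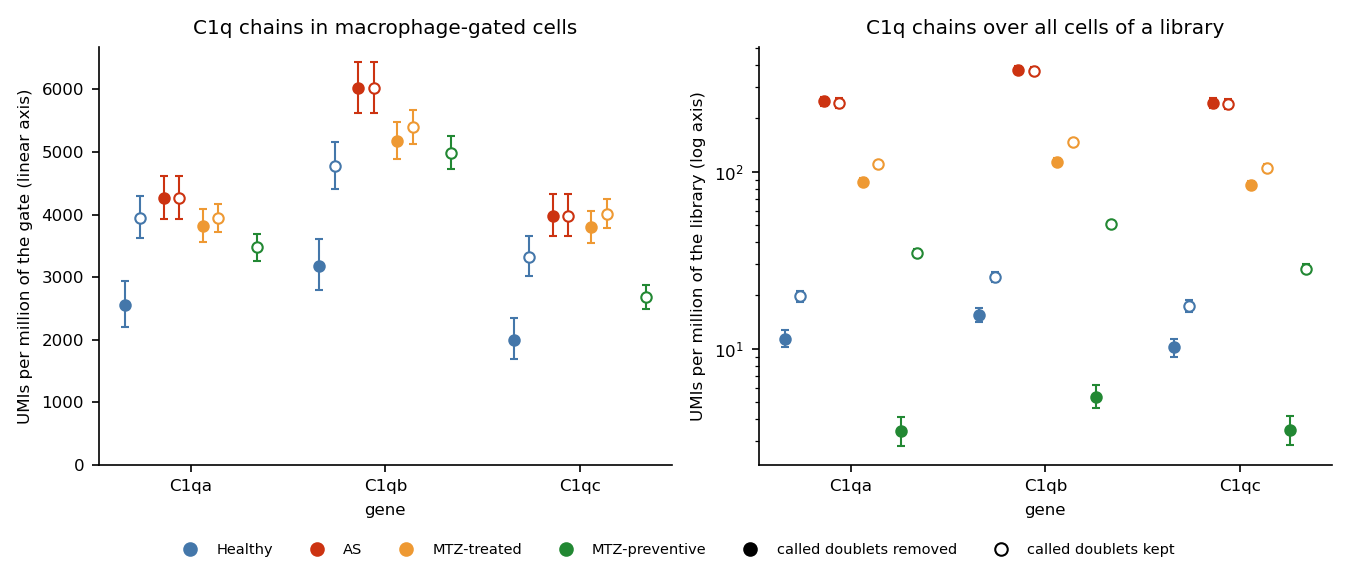
C1qa, C1qb and C1qc (x axis) in macrophage-gated cells (left, CPM of the gate, linear axis) and over all cells of a library (right, CPM of the library, log axis), with called doublets removed (filled) or kept (open) and bars for 95% counting intervals. Within the gate the open points of each chain lie within 2-fold of each other. Over whole libraries the open points of C1qb run from 25.5 to 369.5 CPM and the filled points from 5.35 to 374 CPM.

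Over whole libraries the C1q chains differed far more than within macrophage-gated cells. With called doublets kept, C1qa measured 19.7 CPM in the library labelled Healthy beside 245 in AS, against 109.6 in MTZ-treated and 34.7 in MTZ-preventive, C1qb 25.5 CPM in the library labelled Healthy beside 369.5 in AS, against 146 in MTZ-treated and 50.3 in MTZ-preventive and C1qc 17.5 CPM in the library labelled Healthy beside 241 in AS, against 105 in MTZ-treated and 28.3 in MTZ-preventive. AS was highest and the library labelled Healthy lowest for each chain with called doublets kept. The AS ratio over the library labelled Healthy was 12.4 (11.3 to 13.7), 14.5 (13.3 to 15.8) and 13.8 (12.5 to 15.3) for C1qa, C1qb and C1qc, and 21.8 (19.2 to 24.8), 24.1 (21.7 to 26.9) and 23.9 (20.9 to 27.4) with called doublets removed. MTZ-treated stood to AS at 0.448 (0.414 to 0.485), 0.395 (0.370 to 0.422) and 0.435 (0.401 to 0.471) with doublets kept. MTZ-preventive stood to AS at 0.142 (0.130 to 0.154), 0.136 (0.127 to 0.146) and 0.117 (0.108 to 0.128). After doublet removal the last ratios became 0.0138 (0.0112 to 0.0167), 0.0143 (0.0122 to 0.0167) and 0.0142 (0.0116 to 0.0173), because 1389 of 1504 C1qa UMIs, 2001 of 2181 C1qb UMIs and 1110 of 1226 C1qc UMIs of MTZ-preventive lay in called doublets. MTZ-preventive was then the lowest library for each chain, at 3.42, 5.35 and 3.45 CPM. The library labelled Healthy had 11.4, 15.5 and 10.2 CPM, in the same order of chains.

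The share of macrophage-gated cells moved with these whole-library levels. With called doublets kept, the gate held 0.308 (0.218 to 0.422)% of cells in the library labelled Healthy beside 2.0 (1.46 to 2.68)% in AS, against 1.10 (0.868 to 1.36)% in MTZ-treated and 0.349 (0.265 to 0.452)% in MTZ-preventive. The order of the 4 libraries was that of their C1q levels, with overlapping intervals for the library labelled Healthy and MTZ-preventive. B-cell-gated and T-cell-gated cells made up 2910 and 1899 of the 11121 kept cells of the library labelled Healthy and 4 and 3 of the 2160 of AS, and are part of the denominators. Their part in the differences was not tested, and condition and library cannot be told apart here.

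C1q was detected in most macrophage-gated cells at equal depth. Cells were thinned to 1000 UMIs each, and the share of macrophage-gated cells with a UMI of all 3 chains was 73.7% in the library labelled Healthy beside 75.0% in AS, against 77.2% in MTZ-treated and 59.6% in MTZ-preventive, called doublets kept. The unthinned shares were 81.6% in the library labelled Healthy beside 81.8% in AS, against 83.5% in MTZ-treated and 68.4% in MTZ-preventive. With called doublets removed, no B-cell-gated or T-cell-gated cell had all 3 chains after thinning in the 3 libraries with enough such cells. Single chains were found in at most 0.427% of either class in MTZ-preventive and 0.211% in the library labelled Healthy. In MTZ-treated this was 1.72%, which was 1 of 58 B cells. These background shares were not taken with called doublets kept, unlike those of macrophage-gated cells. Median depths were 1669 UMIs in the B cells of MTZ-preventive and 2961 UMIs in the T cells of the library labelled Healthy, against 2048 UMIs in macrophage-gated cells of AS.

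Macrophage-gated cells were next divided by a UMI of Trem2 or Mmp12, genes of the lipid-laden foam cells of plaques. With called doublets kept, 14 of 38 cells in the library labelled Healthy, 40 of 44 in AS, 57 of 79 in MTZ-treated and 32 of 57 in MTZ-preventive had such a UMI. Summed C1q measured 16283 (15226 to 17394) CPM in the library labelled Healthy beside 15771 (15080.5 to 16485) in AS, against 14164 (13694 to 14646) in MTZ-treated and 15603 (15014 to 16209.7) in MTZ-preventive. The cells without such a UMI had 9157 (8504 to 9846) CPM in the library labelled Healthy beside 2751 (2007 to 3681) in AS, against 9216 (8373 to 10121) in MTZ-treated and 5005 (4618 to 5416) in MTZ-preventive, from 4 cells in AS. In every library C1q was higher in the cells with a Trem2 or Mmp12 UMI, and among those cells the 4 levels lay between 14164 and 16283 CPM. Median depths were 3736.5, 2032, 3144 and 4434 UMIs with it and 2705, 3763, 1808.5 and 5307 UMIs without it, so that the cells with such a UMI were the deeper ones in the library labelled Healthy and MTZ-treated and the shallower ones in AS and MTZ-preventive. Trem2 and Mmp12 are also markers of the gate.

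C1q stood at lower levels outside macrophage-gated cells. In the kept cells of AS, summed C1q was 14257 CPM in macrophage-gated cells, 688 in cells that passed no gate and 184 in smooth-muscle-gated cells. In MTZ-treated it was 235 CPM in cells that passed no gate. In fibroblast-gated cells C1qb measured 10.9 (8.10 to 14.4) CPM in the library labelled Healthy beside 83.3 (63.4 to 107) in AS, against 40.1 (34.8 to 46.0) in MTZ-treated and 4.25 (3.01 to 5.84) in MTZ-preventive. Endothelial-gated cells had 0.873 (0.106 to 3.16) CPM in the library labelled Healthy beside 101 (76.3 to 130.0) in AS, against 7.34 (4.42 to 11.5) in MTZ-treated and 3.48 (1.80 to 6.08) in MTZ-preventive of C1qb. With called doublets kept, endothelial C1qb was 14.1 (10.0 to 19.2) CPM in MTZ-treated and 11.7 (8.79 to 15.3) in MTZ-preventive, beside 100.3 (76.2 to 129.7) in AS. AS was the highest of the 4 libraries in both gates. The C1q UMIs of AS were 29.9% C1qa, 42.2% C1qb and 27.9% C1qc in macrophage-gated cells and 24.8% C1qa, 42.3% C1qb and 32.8% C1qc in endothelial-gated cells. For each UMI of a macrophage marker there were 3.0 C1q UMIs in the macrophage-gated cells of AS, 1.69 in endothelial-gated and 1.06 in fibroblast-gated cells. Summed macrophage markers were at 90.0 CPM in the library labelled Healthy beside 140.4 in AS, against 94.3 in MTZ-treated and 92.3 in MTZ-preventive in endothelial-gated cells, from 7 to 11 of the 12 markers. All 3 chains were found together in 2.76% of endothelial-gated cells of AS after thinning, and AS had too few B and T cells for a background share. Whether these UMIs are free RNA of macrophages was not tested.

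The other complement genes were sparse in macrophage-gated cells. When AS was set against the library labelled Healthy, 6 of the 9 genes reached a mean of 50 CPM, and by the 2-fold rule, with an interval clear of 1, C3 and Serping1 were the 2 higher and none was lower. Of all 2630 genes above that level, 12.0% were higher and 10.2% lower. C3 rested on 15 UMIs in AS and 1 in the library labelled Healthy, and measured 13.1 CPM in the library labelled Healthy beside 107 in AS, against 8.86 in MTZ-treated. Serping1 had 20 UMIs in AS and 0 in the library labelled Healthy, at least 3.62-fold higher against a floor of 3 UMIs, but with called doublets kept it had 14 UMIs there and the ratio was 1.36 (0.652 to 2.91). Those 14 UMIs lay in 1 of 38 cells, a called doublet. In AS, Serping1 was found in 18.2% and C3 in 9.09% of 44 cells without thinning. The intervals count UMIs and take no account of their spread over cells. With doublets kept, 1 of 6 genes was higher, C3, beside 13.5% of all genes higher and 11.3% lower. C3 reached the level only through AS, in this comparison and in those with the MTZ libraries, and so did Serping1, save in the comparison of AS with the library labelled Healthy when doublets were kept, so that these counts are a description and support no difference.

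C3 and Serping1 of the macrophage gate were also set between AS and the MTZ libraries. Against AS, MTZ-treated had ratios of 0.0831 (0.00922 to 0.357) for C3 and 0.187 (0.0615 to 0.483) for Serping1, the 2 lower among 5 genes above the level, beside 6.37% of all genes lower and 3.44% higher. With doublets kept the same 2 of 5 were lower, beside 6.54% lower and 4.06% higher. The gate of MTZ-preventive was read with doublets kept, and C3 at 0.224 (0.0774 to 0.584) and Serping1 at 0.144 (0.0474 to 0.372) were the 2 lower of 6 genes, beside 7.31% of all genes lower and 6.62% higher. With the wider macrophage list and doublets removed, C3 in MTZ-preventive stood to AS at 1.25 (0.712 to 2.11), from 19 and 69 UMIs, and was thus not lower, while Serping1 stood at 0.388 (0.163 to 0.795). The C3 UMIs behind the values of the first gate numbered 15 in AS, against 2 in MTZ-treated and 7 in MTZ-preventive, and the Serping1 UMIs 20, 7 and 6, doublets kept. C4b had 16, 8, 8 and 17 UMIs in the 4 libraries, and its ratio of MTZ-preventive to AS was 1.02 (0.418 to 2.73). Summed fibroblast markers in the kept macrophage-gated cells were 144 CPM in the library labelled Healthy beside 561 in AS, against 151 in MTZ-treated, with 4, 6 and 8 of 10 markers detected. Smooth muscle markers summed to 144 CPM in the library labelled Healthy beside 888 in AS, against 540.5 in MTZ-treated, with 4, 8 and 7 of 10 detected, and endothelial markers to 26.2 CPM in the library labelled Healthy beside 242 in AS, against 39.9 in MTZ-treated, with 2, 10 and 5 of 11. All 3 sums were highest in AS, and their part in the C3 and Serping1 values was not tested. Without cells with a UMI of an adipocyte marker, C3 in MTZ-treated was at a log2 ratio of -0.12 to AS, against -3.59 with them. No complement gene passed between MTZ-treated and AS under that setting, with gating after thinning or with a looser cell filter. C1ra, C1s1 and Cfb had at most 5 UMIs in the gate of any library with doublets kept. These comparisons share the AS library.

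Fibroblast-gated cells were the largest source of C1ra, C1s1 and Serping1, the C1 proteases and their inhibitor, though with a smaller share of C1s1. With called doublets kept, the gate held, of C1ra UMIs, 62.5% in the library labelled Healthy beside 58.3% in AS, against 72.2% in MTZ-treated and 71.1% in MTZ-preventive. Of Serping1 UMIs it held 70.5% in the library labelled Healthy beside 58.2% in AS, against 77.9% in MTZ-treated and 72.6% in MTZ-preventive. Of C1s1 UMIs it held 51.3% in the library labelled Healthy beside 40.6% in AS, against 64.5% in MTZ-treated and 63.6% in MTZ-preventive. Smooth-muscle-gated cells held up to 25.7% of C1s1 UMIs, in the library labelled Healthy, and the fibroblast gate between 15.1% and 32.2% of all UMIs. The counts of C1ra and C1s1 are uncertain where reads are shared with their near copies C1rb and C1s2, as are those of C4b with C4a. On GRCm38.p6, C1ra (chr6:124512621-124523440) and C1s1 (chr6:124530344-124542392) are neighbours, and Serping1 (chr2:84765360-84775444) lies elsewhere.

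Within fibroblast-gated cells, these 3 genes differed by less than 2-fold between libraries. C1ra measured 217 (204 to 231) CPM in the library labelled Healthy beside 261 (225 to 302) in AS, against 194 (182 to 207) in MTZ-treated and 339.9 (328 to 352) in MTZ-preventive. C1s1 measured 301 (285 to 317) CPM in the library labelled Healthy beside 398 (353 to 447) in AS, against 360.3 (344 to 377) in MTZ-treated and 364 (351 to 377) in MTZ-preventive. Serping1 measured 1831 (1792 to 1870.4) CPM in the library labelled Healthy beside 2144 (2038 to 2255) in AS, against 1931 (1893 to 1969) in MTZ-treated and 2527 (2494 to 2560.1) in MTZ-preventive. MTZ-preventive was the highest for C1ra and Serping1, and AS for C1s1. The AS ratio over the library labelled Healthy was 1.20 (1.02 to 1.41) for C1ra, 1.32 (1.16 to 1.5) for C1s1 and 1.17 (1.11 to 1.24) for Serping1. MTZ-preventive stood to AS at 1.30 (1.12 to 1.52), 0.914 (0.809 to 1.04) and 1.18 (1.12 to 1.24), and MTZ-treated at 0.744 (0.636 to 0.876), 0.905 (0.798 to 1.03) and 0.900 (0.853 to 0.951). The interval of C1s1 held 1 in both MTZ comparisons.

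C3, C4b and Cfb, the genes of the convertases, were all higher in the fibroblast-gated cells of AS than in those of the library labelled Healthy. C3 measured 752 (727 to 778) CPM in the library labelled Healthy beside 1644 (1551 to 1742) in AS, against 1138 (1109 to 1168) in MTZ-treated and 1781 (1753 to 1808) in MTZ-preventive. C4b measured 78.8 (70.9 to 87.4) CPM in the library labelled Healthy beside 498 (448 to 553) in AS, against 358 (342 to 375) in MTZ-treated and 390.1 (377 to 403) in MTZ-preventive. Cfb measured 106 (96.5 to 116) CPM in the library labelled Healthy beside 223 (189.6 to 261) in AS, against 199.9 (188 to 213) in MTZ-treated and 226 (217 to 237) in MTZ-preventive. The library labelled Healthy was the lowest for each of them, with intervals that met no other library. The AS ratio over the library labelled Healthy was 2.19 (2.04 to 2.34) for C3, 6.32 (5.44 to 7.34) for C4b and 2.11 (1.75 to 2.53) for Cfb. C4b (chr17:34728139-34743902) and Cfb (chr17:34856374-34862514) lie close together on GRCm38.p6, and C3 (chr17:57203967-57228136) is on the same chromosome. These 3 of the 6 complement genes above the level were at least 2-fold higher and none was lower, whereas of all 2583 genes 4.26% were higher and 5.61% lower. The median log2 ratio of the 6 was 0.74, against -0.0059 over all genes.

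The RefSeq window of C3 (chr17:57228137-57228386, minus strand, GRCm38.p6) is shown because, of C3, C4b and Cfb, C3 alone had a window. Capitals mark matches on either strand to TTGCNNAA, the site of C/EBP factors, which drive acute-phase genes.
C3: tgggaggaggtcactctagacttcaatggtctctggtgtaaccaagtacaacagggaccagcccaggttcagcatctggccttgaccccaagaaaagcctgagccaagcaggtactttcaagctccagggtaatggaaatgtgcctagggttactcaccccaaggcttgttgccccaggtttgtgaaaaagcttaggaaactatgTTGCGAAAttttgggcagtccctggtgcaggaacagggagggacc
The window held 1 match, starting at position -45, and 9.56% of all windows held at least 1. It held no match to GAGGAA or to TTCNNNGAA, the STAT site, which 7.02% of windows held.

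**Figure D3:**
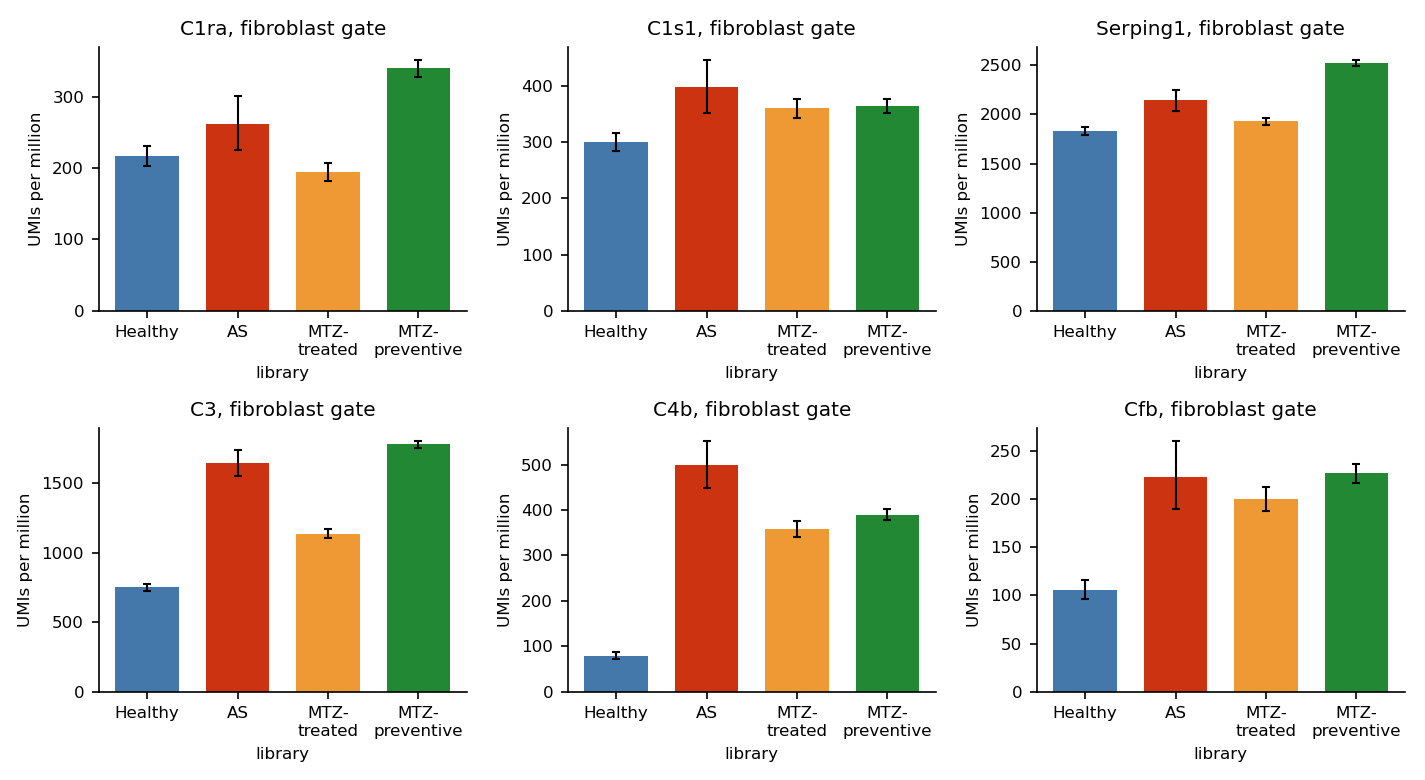
CPM of fibroblast-gated cells (y axis, from 0) of C1ra, C1s1, Serping1, C3, C4b and Cfb in the 4 libraries (bars), with 95% counting intervals (lines). C3, C4b and Cfb are lowest in the library labelled Healthy, and C3 and C4b are lower in MTZ-treated than in AS.

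C3 and C4b were lower in MTZ-treated than in AS, by less than 2-fold. C3 stood at 0.692 (0.650 to 0.738) and C4b at 0.718 (0.641 to 0.807), while Cfb, at 0.896 (0.757 to 1.07), did not differ beyond counting error. In MTZ-preventive C3 was at 1.08 (1.02 to 1.15) of AS, C4b at 0.783 (0.702 to 0.876) and Cfb at 1.02 (0.863 to 1.20). Of these 3 genes, C4b alone was below AS in both MTZ libraries with intervals clear of 1. By the 2-fold rule, 1 of 7 complement genes was lower in MTZ-treated, C1qb, and none higher, beside 2.98% of all genes lower and 1.87% higher. In MTZ-preventive 0 of 6 passed in either direction, beside 1.85% lower and 2.01% higher. C1qb, at 0.482 (0.359 to 0.655), also reached the level through AS, and it changed direction under a looser cell filter and without cells with a Cfd UMI. The median log2 ratios of the complement genes were -0.43 in MTZ-treated and 0.07 in MTZ-preventive, against 0.07 and -0.0011 over all genes.

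The share of fibroblast-gated cells with a UMI of C3, C4b or Cfb was also lowest in the library labelled Healthy at equal depth. After thinning to 1000 UMIs, the share of cells with C3 was 28.2% in the library labelled Healthy beside 65.2% in AS, against 46.6% in MTZ-treated and 60.5% in MTZ-preventive. The share with C4b was 5.21% in the library labelled Healthy beside 30.7% in AS, against 21.5% in MTZ-treated and 23.0% in MTZ-preventive, and that with Cfb 7.09% in the library labelled Healthy beside 18.9% in AS, against 13.6% in MTZ-treated and 16.4% in MTZ-preventive. AS was the highest for all 3, also for C3 and Cfb, whose levels were highest in MTZ-preventive. Without thinning, the share with C3 was 35.9% in the library labelled Healthy beside 74.8% in AS, against 59.5% in MTZ-treated and 73.7% in MTZ-preventive. The share with Serping1 after thinning was 63.4% in the library labelled Healthy beside 66.8% in AS, against 71.8% in MTZ-treated and 77.6% in MTZ-preventive. In B-cell-gated cells, which should lack these genes, C3 was found in 0.0687% in the library labelled Healthy and 2.03% in MTZ-preventive, and Serping1 in 0.344% and 2.03%, at median depths of 1956 and 1669 UMIs against 1551 and 1658 UMIs in fibroblast-gated cells.

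Fibroblast-gated cells differed among themselves, and their makeup differed between libraries. A UMI of Prg4, which encodes lubricin, or of the chemokine gene Cxcl13 was found in 60 of 1748 cells of the library labelled Healthy, 184 of 322 in AS, 497 of 1923 in MTZ-treated and 2101 of 3583 in MTZ-preventive. C3 measured 1545 CPM in the library labelled Healthy beside 1822 in AS, against 1360.3 in MTZ-treated and 1874 in MTZ-preventive in these cells and 689 CPM in the library labelled Healthy beside 1301 in AS, against 1015 in MTZ-treated and 1625 in MTZ-preventive in the others. C4b measured 156 CPM in the library labelled Healthy beside 552 in AS, against 469 in MTZ-treated and 417 in MTZ-preventive with such a UMI and 72.6 CPM in the library labelled Healthy beside 394 in AS, against 296 in MTZ-treated and 345 in MTZ-preventive without it. Both genes were thus higher in AS than in the library labelled Healthy in either subset, C4b by more than 2-fold and C3 by less. Without such cells the log2 ratio of C3 was 0.92, against 1.13 over all fibroblast-gated cells, and so no longer past 2-fold. Cfb was higher in AS as well, at 242 (199 to 291) against 153 (114 to 201) CPM with such a UMI, where the intervals just met, and 186 (136 to 249) against 102 (92.5 to 112) CPM without it. For Cfb too this was less than 2-fold in either subset.

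Serping1 and C1ra behaved differently in this split. Among cells without a Prg4 or Cxcl13 UMI, Serping1 measured 1781 CPM in the library labelled Healthy beside 1342 in AS, against 1729 in MTZ-treated and 2636 in MTZ-preventive, and the log2 AS ratio over the library labelled Healthy was -0.41 against 0.23 over all fibroblast-gated cells. C1ra measured 208 CPM in the library labelled Healthy beside 137 in AS, against 179 in MTZ-treated and 326 in MTZ-preventive in the same cells, a log2 ratio of -0.60 against 0.27. AS was thus the lowest library for both genes once these cells were left out. This split and those that follow by Clec3b or Pi16 and by Postn were chosen after the data were seen.

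C3 was also higher in cells with a UMI of Clec3b or Pi16, genes of adventitial fibroblasts and markers of the gate. It measured 781 CPM in the library labelled Healthy beside 1741 in AS, against 1176 in MTZ-treated and 1878 in MTZ-preventive with such a UMI and 162 CPM in the library labelled Healthy beside 1197 in AS, against 524 in MTZ-treated and 805 in MTZ-preventive without it, and the difference between AS and the library labelled Healthy was present in both. Postn, the gene of the matrix protein periostin, divided them otherwise. In cells with a Postn UMI, C3 measured 1028 (888 to 1182) CPM in AS and 1116 (1066 to 1167) CPM in the library labelled Healthy, whose intervals overlap. In cells without it C3 measured 1870.2 (1754 to 1992) and 534 (507 to 561) CPM. C4b was higher in AS in either group, at 385 (302 to 484) against 96.0 (81.9 to 112) CPM with a Postn UMI and 539.9 (478 to 607) against 68.5 (59.3 to 78.8) CPM without.

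**Figure D4:**
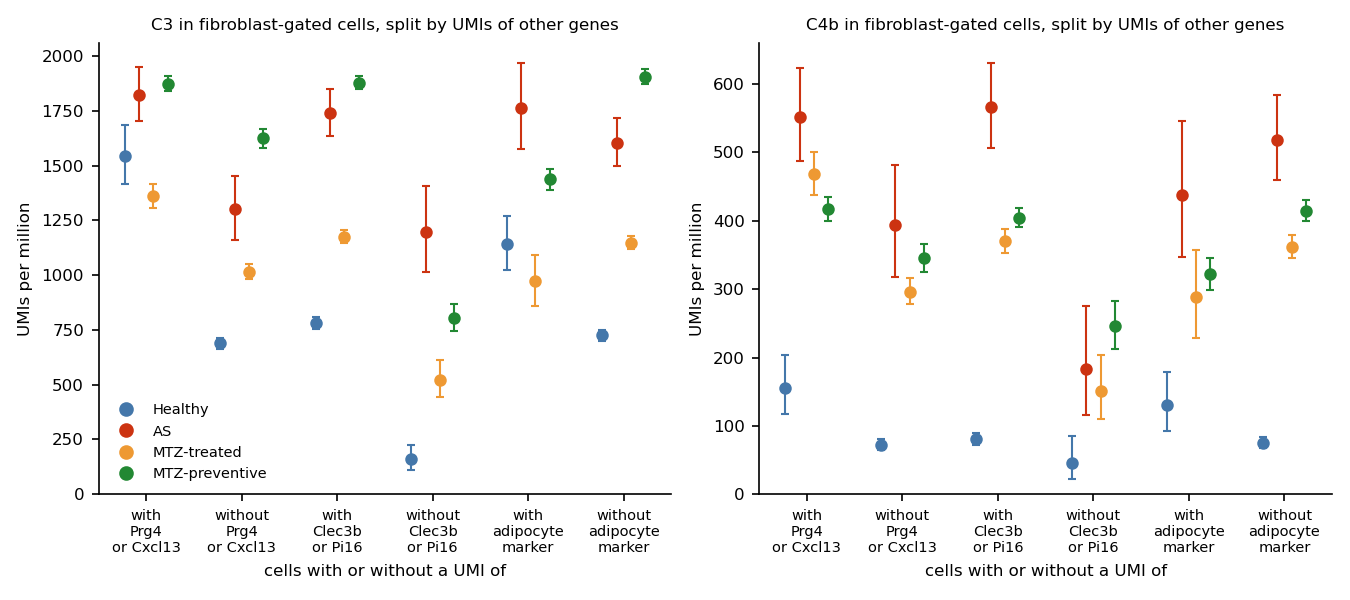
C3 (left) and C4b (right) in fibroblast-gated cells with or without a UMI of the genes on the x axis (y axis, CPM, from 0), by library, with 95% counting intervals. The splits plotted are by Prg4 or Cxcl13, by Clec3b or Pi16 and by an adipocyte marker, and in each of these 6 subsets the library labelled Healthy lies below AS for both genes.

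Transcripts of fat cells were more abundant in the fibroblast-gated cells of AS and MTZ-preventive than in those of the other libraries. Adipocyte markers summed to 36.9 CPM in the library labelled Healthy beside 329 in AS, against 118 in MTZ-treated and 270.4 in MTZ-preventive in fibroblast-gated cells, with 9 or 10 of 10 markers detected. Cfd, the adipocyte gene of complement factor D, measured 30.3 CPM in the library labelled Healthy beside 1647 in AS, against 205 in MTZ-treated and 1374 in MTZ-preventive in the same cells. In cells without a UMI of an adipocyte marker, C3 measured 725 CPM in the library labelled Healthy beside 1604 in AS, against 1148 in MTZ-treated and 1905 in MTZ-preventive and C4b 75.2 CPM in the library labelled Healthy beside 519 in AS, against 362 in MTZ-treated and 415 in MTZ-preventive. Cfb measured 99.7 CPM in the library labelled Healthy beside 225 in AS, against 202 in MTZ-treated and 240.0 in MTZ-preventive. The log2 AS ratios over the library labelled Healthy in these cells were 1.15 for C3, 2.79 for C4b and 1.18 for Cfb, and without cells with a Cfd UMI they were 1.17, 2.76 and 1.15. Over all fibroblast-gated cells the same log2 ratios were 1.13, 2.66 and 1.08. Leaving out such cells does not take out free RNA in the others, and the part of fat-cell transcripts in these values was not tested. Summed B cell markers in fibroblast-gated cells were 292 CPM in the library labelled Healthy beside 14.1 in AS, against 12.8 in MTZ-treated and 84.8 in MTZ-preventive, and those of neutrophils 5.90 CPM in the library labelled Healthy beside 464 in AS, against 22.1 in MTZ-treated and 29.6 in MTZ-preventive, and their part in the complement values was not tested.

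Cells with adipocyte markers expressed C3 and C4b in the libraries that held enough of them. C3 measured 855 (780.0 to 935) CPM in AS and 877 (845 to 909.7) CPM in MTZ-preventive. C4b measured 707 (639 to 779.7) and 574 (549 to 601) CPM, and Serping1 218 (181 to 261) and 151 (138 to 165) CPM. The ratios of MTZ-preventive to AS were 1.03 (0.931 to 1.13) for C3, 0.813 (0.729 to 0.908) for C4b, 0.691 (0.566 to 0.850) for Serping1 and 0.80 (0.573 to 1.14) for Cfb. None of these 4 passed 2-fold, beside 3.82% of all genes higher and 4.05% lower, and their median log2 ratio was -0.31 against -0.0036 over all genes. With called doublets kept, the gate held 34.6% of the C4b UMIs of AS and 21.5% of those of MTZ-preventive, against 2.0% and 0.854% in the library labelled Healthy and MTZ-treated, where it had 19 and 17 cells. After thinning, C3 was found in 49.4% and 47.2% of these cells and C4b in 45.5% and 35.1%. In this gate AS could be set against the library labelled Healthy only with a lead of 1 marker (350 and 27 cells) or a looser cell filter (453 and 26). C4b stood at 2.94 (1.81 to 5.08) and 2.06 (1.59 to 2.71), and C3 at 1.79 (1.27 to 2.58) and 1.05 (0.875 to 1.26). Cfb stood at 0.379 (0.206 to 0.745) and 0.474 (0.299 to 0.771), and Serping1 at 0.568 (0.382 to 0.870) and 8.60 (3.30 to 31.9). No share over all genes was taken here, so that these ratios are a description.

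In endothelial-gated cells Serping1 differed little between libraries, and C3 and C4b were lowest in the library labelled Healthy. Serping1 measured 171 (155 to 189) CPM in the library labelled Healthy beside 159 (129 to 196) in AS, against 148 (134 to 164) in MTZ-treated and 179.7 (166 to 194) in MTZ-preventive, and its AS ratio over the library labelled Healthy was 0.931 (0.734 to 1.17). C3 measured 6.99 (3.99 to 11.3) CPM in the library labelled Healthy beside 90.1 (67.3 to 118) in AS, against 49.1 (40.9 to 58.4) in MTZ-treated and 96.7 (86.6 to 108) in MTZ-preventive. C4b measured 1.31 (0.270 to 3.83) CPM in the library labelled Healthy beside 57.2 (39.4 to 80.3) in AS, against 31.7 (25.2 to 39.3) in MTZ-treated and 34.3 (28.4 to 41.0) in MTZ-preventive. The means of C3 and C4b over AS and the library labelled Healthy were under 50 CPM, so that neither counts in that comparison. Adipocyte markers summed to 207 CPM in the library labelled Healthy beside 617 in AS, against 100.5 in MTZ-treated and 411 in MTZ-preventive in the same cells, with 9 of 10 detected in each library. In the endothelial-gated cells of AS, C4b measured 98.7 (63.2 to 147) CPM with and 27.0 (12.3 to 51.2) CPM without a UMI of an adipocyte marker, and C3 127 (86.6 to 181) and 62.9 (39.0 to 96.2) CPM. In MTZ-preventive C4b measured 56.3 (45.2 to 69.4) and 15.9 (10.8 to 22.8) CPM. Both genes were thus higher in the cells with fat-cell transcripts in AS.

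C1qb was the complement gene past 2-fold in each endothelial comparison, but it reached the level only through its 58 UMIs in AS, which all 3 comparisons share. These calls are a description and support no difference. It was the 1 higher of 2 genes above the level between AS and the library labelled Healthy, from 58 and 2 UMIs, beside 3.09% of all genes higher and 5.04% lower. It was the 1 lower of 3 in MTZ-treated, at 0.0730 (0.0411 to 0.124) of AS, beside 4.20% lower and 2.51% higher, and the 1 lower of 3 in MTZ-preventive, at 0.0346 (0.0169 to 0.0652), beside 1.60% lower and 2.49% higher. With a wider macrophage list no complement gene passed in any of the 3, without the shared barcodes none passed between AS and the library labelled Healthy, and with gating after thinning or a looser cell filter none passed in MTZ-preventive.

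**Figure D5:**
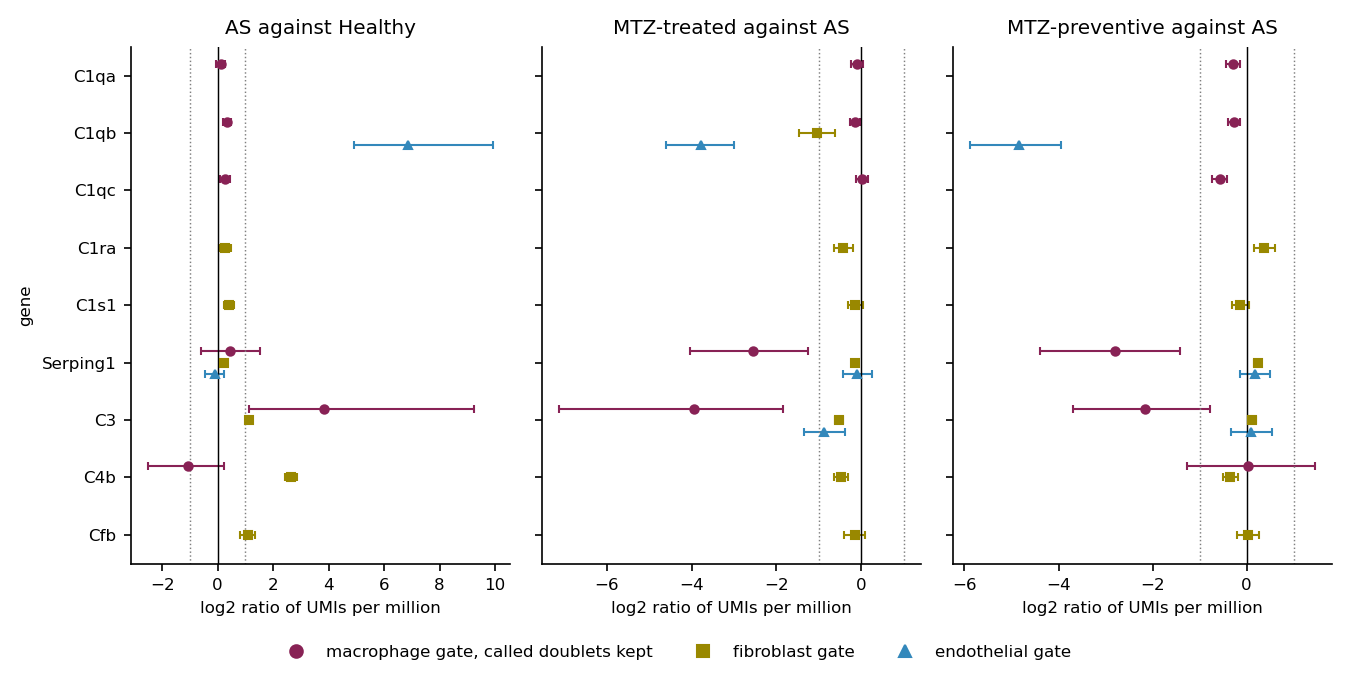
Log2 ratios of CPM (x axis, bars for 95% counting intervals) of the complement genes (y axis) in macrophage-gated (circles, called doublets kept), fibroblast-gated (squares) and endothelial-gated cells (triangles) for the 3 comparisons; genes under a mean of 50 CPM and intervals without an end are left out, and dotted lines mark 2-fold. C3, C4b and Cfb of fibroblasts lie to the right of 0 in the first panel. The C1q chains of macrophages lie between the dotted lines in all 3, and to the left of 0 for MTZ-preventive against AS.

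In smooth-muscle-gated cells C3 and Serping1 were both highest in AS. C3 measured 11.8 (8.75 to 15.5) CPM in the library labelled Healthy beside 386 (322 to 459.6) in AS, against 48.0 (40.8 to 56.2) in MTZ-treated and 131 (121 to 141) in MTZ-preventive, and Serping1 measured 277 (262 to 294) CPM in the library labelled Healthy beside 600.4 (519 to 691) in AS, against 216 (199.9 to 232) in MTZ-treated and 330.2 (315 to 346) in MTZ-preventive. The library labelled Healthy was the lowest for C3 and MTZ-treated for Serping1. Summed fibroblast markers in these cells were 1538 CPM in the library labelled Healthy beside 1195 in AS, against 1082 in MTZ-treated and 1161 in MTZ-preventive, and adipocyte markers 143 CPM in the library labelled Healthy beside 585 in AS, against 95.8 in MTZ-treated and 305 in MTZ-preventive. Neutrophil markers summed to 4.48 CPM in the library labelled Healthy beside 499 in AS, against 10.5 in MTZ-treated and 16.9 in MTZ-preventive, and macrophage markers to 101 CPM in the library labelled Healthy beside 346 in AS, against 96.1 in MTZ-treated and 90.9 in MTZ-preventive. The markers of smooth muscle itself summed to 47079.5 CPM in the library labelled Healthy beside 28355 in AS, against 46559 in MTZ-treated and 46032 in MTZ-preventive. AS thus had the highest sums of neutrophil, macrophage and adipocyte markers and the lowest of smooth muscle markers. The 35 neutrophil-gated cells of AS had C3 at 365 (247 to 522) CPM, and the part of these cells in the smooth muscle values was not tested. C4b of the library labelled Healthy came for 10.2% of its UMIs from cells gated by Schwann cell markers, at 113 CPM.

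Over whole libraries, C3 measured 147 CPM in the library labelled Healthy beside 728 in AS, against 456 in MTZ-treated and 722 in MTZ-preventive, C4b 20.1 CPM in the library labelled Healthy beside 301 in AS, against 143 in MTZ-treated and 215 in MTZ-preventive and Cfb 25.7 CPM in the library labelled Healthy beside 91.5 in AS, against 85.8 in MTZ-treated and 89.4 in MTZ-preventive, called doublets removed. Serping1 measured 400.01 CPM in the library labelled Healthy beside 686 in AS, against 798 in MTZ-treated and 906 in MTZ-preventive, C1ra 53.4 CPM in the library labelled Healthy beside 83.6 in AS, against 86.5 in MTZ-treated and 123 in MTZ-preventive and C1s1 90.7 CPM in the library labelled Healthy beside 185 in AS, against 181 in MTZ-treated and 154 in MTZ-preventive. The library labelled Healthy was the lowest for all 6. Against it AS stood at 4.95 (4.71 to 5.19) for C3, 15.0 (13.5 to 16.6) for C4b, 3.56 (3.13 to 4.05) for Cfb, 2.04 (1.88 to 2.22) for C1s1, 1.72 (1.64 to 1.79) for Serping1 and 1.57 (1.38 to 1.77) for C1ra. For all 6 this was larger than the ratio within fibroblast-gated cells, and in such sums a change in the number of cells and in the RNA per cell cannot be told apart.

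Of 42 other genes of the complement system, 4 to 10 reached a mean of 50 CPM in a given gate and comparison. In fibroblast-gated cells, 2 of 9 were higher in AS than in the library labelled Healthy. These were Cfd at 54.3 (45.5 to 65.2) and Clu, the gene of the fluid-phase regulator clusterin, at 4.12 (3.66 to 4.63). The scavenger collectin Colec12, at 0.327 (0.203 to 0.501), was the 1 lower. Colec12 reached the level only through the library labelled Healthy, so that its call is a description and supports no difference. MTZ-treated was lower than AS for 3 of 8, with Cfd at 0.124 (0.114 to 0.135), Clu at 0.444 (0.400 to 0.494) and the terminal component C7 at 0.485 (0.417 to 0.565). MTZ-preventive was lower for 1 of 8, Clu at 0.300 (0.271 to 0.333). The median log2 ratios of these genes were 0.14, -0.55 and 0.005 in the 3 comparisons, beside the medians and shares over all genes given above.

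In the kept macrophage-gated cells 3 of 10 were higher in AS than in the library labelled Healthy, Cfd at 16.0 (4.24 to 135), the anaphylatoxin receptor C3ar1 at 2.72 (1.11 to 7.98) and Cd93, a receptor once linked to C1q, at 16 UMIs against 0 and at least 2.90-fold. Properdin, encoded by Cfp, was the 1 lower, at 0.257 (0.103 to 0.597), beside 12.0% of all genes higher and 10.2% lower. Cfd and Cd93 reached the level only through AS, as did Cfd in the fibroblast gate between AS and the library labelled Healthy, and these calls are a description. MTZ-treated was lower than AS for Cfd, at 0.0106 (0.000263 to 0.0612), and for Cd93, at 0.312 (0.115 to 0.772), the 2 lower of 10, beside 3.44% of all genes higher and 6.37% lower. Both genes again reached the level only through AS, so that these calls too are a description and support no difference. Endothelial-gated cells had Cfd at 214 (149 to 318) in AS against the library labelled Healthy, the 1 higher of 7, beside 3.09% of all genes higher and 5.04% lower. Cfd stood to AS at 0.0111 (0.00872 to 0.0138) in MTZ-treated and 0.465 (0.439 to 0.493) in MTZ-preventive, the 1 lower of 7 in each, beside 4.20% and 1.60% of all genes lower. Endothelial Cfd reached the level only through AS against the library labelled Healthy and against MTZ-treated, and those calls are a description. In cells with adipocyte markers Clu was the 1 higher of 4 in MTZ-preventive, at 2.69 (2.28 to 3.20), beside 3.82% of all genes higher.

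The genes with the most similar pattern were sought over 28 sums of a gate and a library among 5952 genes, by Pearson's r of log2(CPM + 10), as a description with no test, since sums of 1 library share its depth and its free RNA. The C1q chains were most like each other, and the next were the macrophage growth factor receptor gene Csf1r for C1qa (r = 0.97) and C1qc (0.97) and the lysozyme gene Lyz2 for C1qb (0.96). C1ra was most like Nbl1 (r = 0.95), Gas1 (0.93) and Srpx (0.93). C1s1 was most like Slit3 (r = 0.95), Sod3 (0.95) and Ccl19 (0.95), and Serping1 most like Aebp1 (r = 0.93), Fstl1 (0.93) and Nbl1 (0.93). For C3 these were Serpina3n (r = 0.90), Gpx3 (0.90) and Csf1 (0.89). For C4b they were Bckdhb (r = 0.91), Nnmt (0.86) and Mt1 (0.85), and for Cfb Pi16 (r = 0.85), C3 (0.85) and Steap4 (0.84). Csf1r is a marker of the macrophage gate and Pi16 of the fibroblast gate, and r was taken over sums that include these gates.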

How the data were processed

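Aortas of 6 mice per group were pooled into 1 library and read by 10x 5′ single-cell sequencing. The deposited matrices hold raw counts of UMIs per gene and barcode, made by the authors with Cell Ranger 5.0.0 and STAR on mm10 per the labels and file headers, with no normalization. The receptor contig tables of the same libraries were not used. Libraries held 21857, 6908, 20938 and 23963 barcodes (Healthy, AS, MTZ-treated, MTZ-preventive).

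Cells were kept with more than 200 genes, more than 1000 UMIs, log10 genes per log10 UMI over 0.7, under 10% mitochondrial and under 5% hemoglobin UMIs. Doublets were called by nearest neighbours among made pairs of cells, at 0.8% per 1000 cells, and removed. Cells were gated by markers. UMIs were summed over gated cells and given for every 1000000 UMIs (CPM) with exact Poisson 95% intervals. Ratios carry exact conditional binomial intervals, and shares Clopper-Pearson intervals. A gene counted as past 2-fold with a mean of at least 50 CPM, at least 20 cells in both libraries, and an interval clear of 1. Intervals and floors of 3 UMIs cover counting error only. With 1 library per condition no p-value was computed. Alternatives changed gates, doublets, filters, totals, TMM factors (edgeR 4.0.16), weighting, fold and minimum level.

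All 9 complement genes are named. Of 42 other complement genes, those past 2-fold are named, up to 6 per comparison, except 1 that is not reported here, and for each complement gene the 3 genes of highest Pearson correlation. The genes and lists were chosen with earlier results of these data known. The code (Python 3.11.15, SciPy 1.17.1, R 4.3.3) was tested on simulated data.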

Additional observations from a re-analysis of the deposited data

How the results depend on the processing

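Counts of complement genes past 2-fold are given by gate for AS against the library labelled Healthy (AS), and for MTZ-treated and MTZ-preventive against AS. As reported they were macrophage 2 (AS), 2 (MTZ-treated), fibroblast 3 (AS), 1 (MTZ-treated), 0 (MTZ-preventive), endothelial 1 (AS), 1 (MTZ-treated), 1 (MTZ-preventive), adipocyte-marker 0 (MTZ-preventive). Under each alternative only counts that moved beyond 1.5 times the reported count are listed. A count that is not listed can still have gained or lost a gene. With gates of at least 2 markers they were macrophage 4 (AS). With at least 4 markers they were fibroblast 0 (MTZ-treated) and endothelial 2 (AS), 2 (MTZ-treated). With a lead of 1 marker they were macrophage 4 (AS), fibroblast 2 (MTZ-treated), 1 (MTZ-preventive), endothelial 2 (AS), 3 (MTZ-treated) and adipocyte-marker 1 (MTZ-preventive). With gating after thinning they were macrophage 0 (MTZ-treated), fibroblast 0 (MTZ-treated), endothelial 0 (MTZ-preventive) and adipocyte-marker 1 (MTZ-preventive). Under that setting the log2 AS ratio of Cfb over the library labelled Healthy in fibroblast-gated cells fell from 1.08 to 0.77, and so below 2-fold. With called doublets kept they were macrophage 1 (AS) and fibroblast 0 (MTZ-treated). With more than 500 UMIs and under 20% mitochondrial UMIs they were macrophage 0 (MTZ-treated), fibroblast 0 (MTZ-treated) and endothelial 2 (MTZ-treated), 0 (MTZ-preventive). With TMM factors they were macrophage 4 (AS) and fibroblast 0 (MTZ-treated). With totals that left out mitochondrial, ribosomal and hemoglobin genes they were fibroblast 1 (MTZ-preventive), endothelial 3 (AS), 2 (MTZ-treated) and adipocyte-marker 1 (MTZ-preventive). As means over cells they were macrophage 1 (AS) and fibroblast 0 (MTZ-treated), 1 (MTZ-preventive). Without shared barcodes they were endothelial 0 (AS). Without cells with an adipocyte marker UMI they were macrophage 0 (MTZ-treated), fibroblast 0 (MTZ-treated) and endothelial 2 (MTZ-treated). At 1.5-fold they were macrophage 5 (AS) and endothelial 2 (MTZ-treated). At 3-fold they were fibroblast 1 (AS), 0 (MTZ-treated). Without the minimum of 50 CPM they were fibroblast 6 (AS), 3 (MTZ-preventive), endothelial 6 (AS), 3 (MTZ-treated), 3 (MTZ-preventive) and adipocyte-marker 3 (MTZ-preventive). Among the alternatives, shares over all genes were taken only for the macrophage gate with called doublets kept. The other counts are therefore a description and support no difference.

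Alternatives chosen after the data were seen changed them too. With the wider macrophage list they were macrophage 7 (AS), 4 (MTZ-treated), fibroblast 0 (MTZ-treated) and endothelial 0 (AS), 0 (MTZ-treated), 0 (MTZ-preventive). Without cells with a Prg4 or Cxcl13 UMI they were fibroblast 0 (MTZ-treated), 1 (MTZ-preventive). Without cells with a Cfd UMI they were fibroblast 0 (MTZ-treated) and endothelial 0 (MTZ-preventive). With the wider macrophage list 4 genes were also lower in the macrophage gate of MTZ-preventive than in AS, the 3 C1q chains and Serping1, a comparison that had too few cells as first set. C1qa and C1qb reached the level only through AS there, and MTZ-preventive had 20 cells. No share over all genes was taken for this list, so that its counts are a description.

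The log2 ratio of C1qb in fibroblast-gated cells, MTZ-treated against AS, turned from -1.05 to 0.10 with the looser cell filter and to 0.85 without cells with a Cfd UMI. Of 139 counts under alternatives, 86 stayed within 1.5 times the reported count, and of 637 log2 ratios 591 kept their direction. TMM moved all log2 ratios by 0.17 in the macrophage comparisons and by 0.13 in the adipocyte-marker comparison. The counts rest on 2 to 7 genes, so that 1 gene near a threshold moves them, and the cause of other moves was not tested. Comparisons with under 20 gated cells gave no value. No paired analysis was possible because each condition had 1 library. Differences between mice could not be measured.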
